A study of Mus musculus with 3 samples.

Results

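Glycolysis, lactate transport and glycogen metabolism were examined as a set of 38 genes in differentiated C2C12 cells, a line of mouse myoblasts that fuse into muscle fibres (myotubes) in culture. The genes were taken by symbol from the deposited table of 24401 loci, in which each of the 38 symbols had 1 locus. Of these, 35 had a mean of 1 or more FPKM (fragments scaled by transcript length and by the mapped fragments of the library) over the libraries and were used for ratios. Phkg1 lay just inside that limit, at a mean of 1.00 FPKM, and Pfkfb1 just outside, at 0.946 FPKM. Besides Pfkfb1, the genes left out were Pygl and Fbp2.

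Both C2C12 and S2-013, a pancreatic cancer line of human origin, were grown in DMEM with fetal bovine serum and antibiotics. Every C2C12 culture was then differentiated (72 hours, DMEM, 2% horse serum, 1 µg/ml insulin) and kept for 24 hours in 1 of 3 media. For the resveratrol library this was 24-hour conditioned media of S2-013 together with 50 µM resveratrol, a plant polyphenol. For the conditioned media library resveratrol was left out, and for the control library the cells were kept in DMEM. Resveratrol in DMEM alone was not analysed here. The labels do not state the serum or glucose of the 3 media during those 24 hours, so used nutrients and products of the cancer cells cannot be told apart. Each medium has 1 library. No value therefore has an SD or a test of its own, and every difference below is a difference between 2 libraries.

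Glycolysis splits glucose into pyruvate, and in muscle it is fed both by glucose entering the fibre and by glycogen stored within it. Several steps are carried out by isoenzymes from different genes, some of them typical of mature muscle (Pfkm, Pgam2, Eno3, Pygm) and others of proliferating or non-muscle cells. Pyruvate that is not oxidised becomes lactate, which crosses the membrane through monocarboxylate transporters. MCT4, encoded by Slc16a3, is the low-affinity transporter of glycolytic fibres and is known for lactate export, whereas MCT1, encoded by Slc16a1, has the higher affinity and also carries lactate into oxidative cells. Many of these genes are known targets of the hypoxia-inducible factors.

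Summed FPKM over all loci was 2956880 with resveratrol, 2953950 in conditioned media and 3384770 in control. Loci of 200 bases or less held 78.4% of the FPKM with resveratrol, 79.3% in conditioned media and 83.0% in control. Read depth is unknown, since FPKM carries no count. The labels name the cell type as myoblast. The 10 myotube markers summed to 6207 FPKM with resveratrol, 4305 FPKM in conditioned media and 4889.8 FPKM in control, and all were above 0. The 6 myoblast and reserve cell markers summed to 254.8, 227.6 and 184.5 FPKM in the same order, mostly from Sdc4 (173.6, 116.7 and 80.6 FPKM), and none was at 0. With resveratrol, 4 of the 5 with a mean of 1 FPKM or more were lower than in conditioned media, and 1, Sdc4, was higher. The 8 markers of cycling cells summed to 53.8 FPKM with resveratrol, 231 FPKM in conditioned media and 189.7 FPKM in control. Of the 6 fibroblast markers, none was at 0, and they summed to 2939.5, 4333 and 3320.05 FPKM in the same order. Most of that sum came from Col1a1, Col1a2 and Col3a1 (1056, 1001.8 and 2216 FPKM in conditioned media). Lum was at 0.407, 0.799 and 0.175 FPKM in the order of the sums. Cell types were not separated, so these sums do not show that fibroblasts were present. The 7 epithelial markers summed to 1.92, 4.08 and 2.48 FPKM, with Krt18 at 0 in every library. The 5 leukocyte markers summed to 1.95, 1.98 and 1.33 FPKM, mostly from Cd68 (1.82, 1.49 and 1.02 FPKM). Ptprc and Adgre1 of that list were at 0 in every library.

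The first question was how the gene set stood in conditioned media against control. Most members had higher values in conditioned media. Log2 ratios of FPKM + 1 were above 0 for 28 of 35 genes, where 48.7% of the 11858 loci with a mean of 1 FPKM or more were above 0, and below 0 for 7, where 51.3% of loci were below 0. The median log2 ratio was 0.23 over the 35 genes and -0.01 over all loci. All 8 cycling markers (median log2 ratio 0.27) and all 5 fibroblast markers that passed the limit (median 0.58) were also above 0 in this comparison as deposited (7 of 8 cycling markers over loci above 200 bases), and their part in the members' values was not tested. Differences were small in size. By a 1.5-fold rule, 6 genes were higher in conditioned media, against 7.43% of loci, and 0 were lower, against 4.92% of loci. By a 2-fold rule, 1 gene was higher, the branching enzyme gene Gbe1, against 1.98% of loci, and 0 were lower, against 0.751% of loci. The authors' deposited table tested 34 of the 38 genes and calls 22 higher, against 25.8% of tested loci, and 2 lower, against 29.9%, and does not call the other 10.

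With resveratrol added to conditioned media, most members were lower than in conditioned media alone. Ratios were below 0 for 23 of 35 genes, where 47.4% of loci were below 0, and above 0 for 12, where 52.5% of loci were above 0. The median log2 ratio was -0.20 over the 35 genes and 0.03 over all loci. By the 1.5-fold rule 3 genes were higher, against 7.59% of loci, and 4 were lower, against 12.6% of loci, so neither share stood far from the background. By the 2-fold rule 3 genes were lower, against 4.97% of loci, and 0 were higher, against 1.53% of loci. The authors' deposited table calls 10 of 34 higher, against 34.1% of tested loci, and 21 lower, against 29.5%. All 8 cycling markers (median log2 ratio -1.90) and the same 5 fibroblast markers (median -0.44) were lower, and 8 of 10 myotube markers (median 0.46) higher, with resveratrol in this comparison, and their part in these differences was not tested. In such bulk RNA, fewer cells of a type and less RNA per cell cannot be told apart.

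Against control, the library with resveratrol had ratios above 0 for 23 of 35 genes, where 50% of loci were above 0, and below 0 for 12, where 49.9% of loci were below 0. The median log2 ratio was 0.16, against 0.00 over all loci. The 1.5-fold rule found 4 genes higher, against 11.4% of loci, and 2 lower, against 14% of loci. The 2-fold rule found 1 gene higher, Slc16a1, against 3.6% of loci, and 0 lower, against 5.25% of loci. Of 34 genes, the authors' deposited table calls 16 higher, against 34.1% of tested loci, and 11 lower, against 34.1%. The 3 comparisons share libraries, so they are not independent of each other, and the values of each gene in all 3 libraries are given below.

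**Figure D1:**
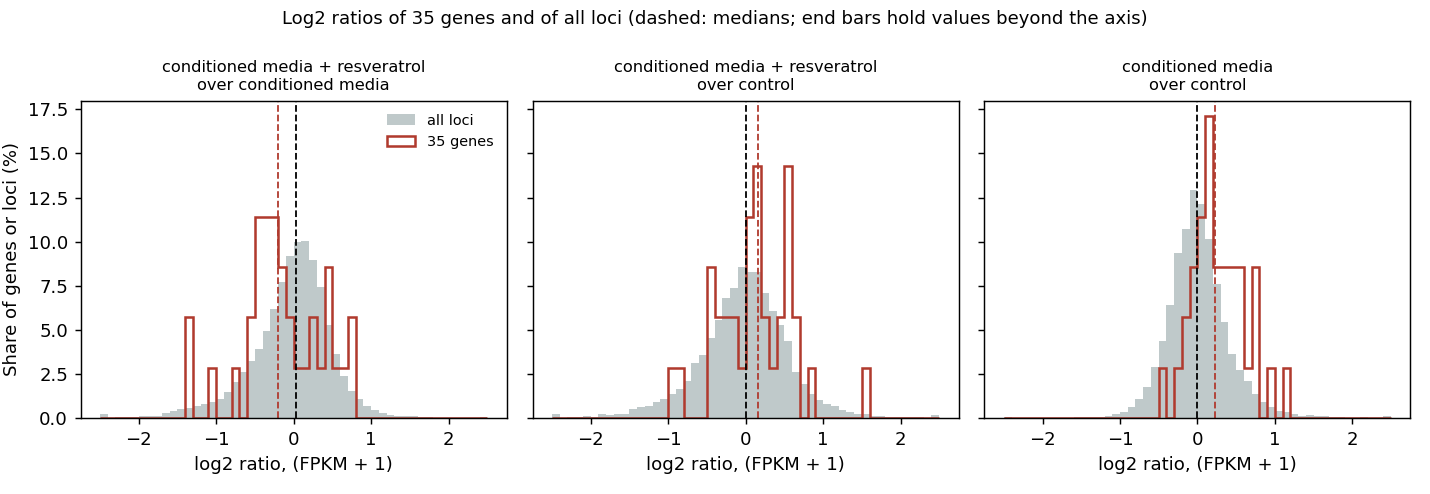
Share of the 35 genes (outline) and of 11858 loci (grey) by log2 ratio of FPKM + 1, in bins of 0.1, with resveratrol over conditioned media, with resveratrol over control, and conditioned media over control. Dashed lines mark the medians, which for the 35 genes are -0.20, 0.16 and 0.23, and for all loci 0.03, 0.00 and -0.01. Each panel compares 1 library with 1 library.

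Scaling between the libraries bears on the comparisons with control. When FPKM was rescaled to equal sums as TPM does, the median of all loci in conditioned media over control was 0.17, so that 32 of 35 genes had ratios above 0. Rescaled to equal sums over loci above 200 bases, the median of all loci was -0.09 and 25 genes had ratios above 0. The genes whose sign turned between scalings in that comparison were Pfkl, Pfkfb4, Pgam2, Ldha, Phka1, Phkg1 and Gyg, all with small ratios. In resveratrol over conditioned media 34 of 35 genes kept 1 sign under the scalings tried, the exception being Ldhb. In resveratrol over control 27 of 35 did, the exceptions being Pfkfb2, Eno1, Eno2, Pkm, Pgm2, Gys1, Pygm and Phkb, and the 23 genes above 0 became 18 over loci above 200 bases. For resveratrol over control, 4 genes were higher and 2 lower by the 1.5-fold rule as deposited, against 11.4% and 14% of loci. With TPM scaling 11 were higher and 2 lower, against 19.5% and 9.34% of loci. Over loci above 200 bases 2 were higher and 3 lower, against 7.61% and 19.1% of loci. The shares over all loci thus moved with the scaling as well. For resveratrol over conditioned media, 3 were higher and 4 lower as deposited, against 7.59% and 12.6% of loci. After scaling by the upper quartile, 2 were higher and 6 lower, against 5.08% and 16% of loci.

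Hexokinases phosphorylate glucose on entry, and the order of the isoforms was not the same in every library. Hk1, the widely expressed isoform, stood at 36.5 FPKM with resveratrol, 74.7 FPKM in conditioned media and 51.5 FPKM in control. It was highest in conditioned media, and 2-fold lower with resveratrol than there (log2 ratio -1.01). Hk2, the insulin-regulated isoform of muscle, was at 40.5 FPKM with resveratrol, 34.3 FPKM in conditioned media and 27.8 FPKM in control. Its log2 ratio was 0.23 for resveratrol over conditioned media and 0.29 for conditioned media over control. Hk1 made up 47.4% of the summed hexokinase FPKM with resveratrol, 68.5% in conditioned media and 64.9% in control. Hk2 was therefore the larger part in the resveratrol library alone of the 3. Such shares within a library do not depend on how the libraries are scaled. The locus of Hk1 (chromosome 10, 62268855 to 62379908 of mm10) shares its span with another locus in the table.

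Phosphofructokinase commits the sugar to glycolysis, and the libraries differed in the share of its isoforms. Pfkp, the platelet isoform, was at 28.4 FPKM with resveratrol, 74.5 FPKM in conditioned media and 38.1 FPKM in control. Its log2 ratio was 0.95 for conditioned media over control and -1.36 for resveratrol over conditioned media, the lowest of the 35 genes. Pfkl, the liver isoform, was at 98.5 FPKM with resveratrol, against 70.4 FPKM in conditioned media and 70.1 FPKM in control, a log2 ratio of 0.48 over conditioned media and of 0.01 between the other libraries. The muscle isoform Pfkm stood at 72.9 FPKM with resveratrol, 78.4 FPKM in conditioned media and 63.4 FPKM in control, a narrower range than either. Summed over the isoforms, FPKM was 199.8 with resveratrol, 223 in conditioned media and 172 in control. The isoforms were close to equal in conditioned media, at 31.5% for Pfkl, 35.1% for Pfkm and 33.4% for Pfkp. With resveratrol Pfkl held 49.3% and Pfkp 14.2%, and in control Pfkl held 40.9% and Pfkp 22.2%. Pfkp and Pfkm each share their span with another locus. The authors' deposited table calls Pfkp in all 3 comparisons (q = 0.000148) and Pfkl in both comparisons of the resveratrol library, but not between conditioned media and control (q = 0.866).

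The promoters of Pfkp and Pfkl are shown because these isoforms differed in opposite directions between the resveratrol and conditioned media libraries. Both are RefSeq sequences of build GRCm38.p6 (the assembly of mm10), from 250 bases before to 50 bases after the RefSeq start site, which can lie inside the locus as the table gives it. Both are on the minus strand. The Pfkp window is chr13:6648722-6649021 and the Pfkl window chr10:78009758-78010057. Capitals mark ACGTG and GCGTG on either strand (CACGT and CACGC where they lie on the other strand), the core letters bound by hypoxia-inducible factors.
Pfkp: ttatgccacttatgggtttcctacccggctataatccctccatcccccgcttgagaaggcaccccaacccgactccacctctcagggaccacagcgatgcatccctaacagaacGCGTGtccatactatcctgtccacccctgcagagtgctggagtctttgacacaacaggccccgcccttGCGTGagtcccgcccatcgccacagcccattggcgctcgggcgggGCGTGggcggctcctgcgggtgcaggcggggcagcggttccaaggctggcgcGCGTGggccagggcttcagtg
Pfkl: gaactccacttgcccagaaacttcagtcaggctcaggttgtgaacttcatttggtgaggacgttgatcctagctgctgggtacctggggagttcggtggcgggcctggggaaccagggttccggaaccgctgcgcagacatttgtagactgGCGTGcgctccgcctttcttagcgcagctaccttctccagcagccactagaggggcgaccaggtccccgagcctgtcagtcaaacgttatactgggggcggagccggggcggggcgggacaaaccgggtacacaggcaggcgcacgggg
The Pfkp window holds 4 matches, all GCGTG, and the Pfkl window 1. Of 32851 promoters of this length, 43.8% hold at least 1 match. Over the genes of the set, 39 of 54 promoters did (72.2%). By gene, 30 of 38 had at least 1 such promoter, but genes with several promoters have more chances of a match. No share by gene was computed over all genes, so that count has no background. Base composition was not matched in that comparison, and a match is a run of letters and no evidence of binding.

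The PFKFB enzymes set the level of fructose 2,6-bisphosphate, an activator of phosphofructokinase, and were low in every library. Pfkfb3, known for its high ratio of kinase to phosphatase activity, was at 6.83 FPKM with resveratrol, 9.70 FPKM in conditioned media and 8.99 FPKM in control. Pfkfb4 was at 2.99 FPKM with resveratrol and 4.41 FPKM in both other libraries. Both were lower with resveratrol, by log2 ratios of -0.45 and -0.44 against conditioned media, and the authors' deposited table calls both. Pfkfb2, the heart isoform, was at 6.64 FPKM with resveratrol, 5.07 FPKM in conditioned media and 6.04 FPKM in control, and the authors' deposited table calls it in resveratrol over conditioned media alone of the 3 comparisons (q = 0.0145). Pfkfb1, the liver and muscle isoform, was at 0.752 FPKM with resveratrol, 0.724 FPKM in conditioned media and 1.36 FPKM in control.

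In the shared part of the pathway, the most abundant genes were higher in conditioned media than in control. Gapdh, the dehydrogenase that yields NADH, was at 2937 FPKM with resveratrol, 2696 FPKM in conditioned media and 2004 FPKM in control, the highest of the set in each library. Aldoa, the aldolase of muscle, was at 1229 FPKM with resveratrol, 1049 FPKM in conditioned media and 860.0 FPKM in control. Both were highest with resveratrol and lowest in control. For conditioned media over control the log2 ratio was 0.43 for Gapdh and 0.29 for Aldoa, and for resveratrol over conditioned media it was 0.12 for Gapdh and 0.23 for Aldoa. Tpi1, triosephosphate isomerase, stood at 533 FPKM with resveratrol, 688 FPKM in conditioned media and 477 FPKM in control. Its locus shares its span with another locus of the table, as do those of Pfkfb2 and Phkg1. For Gpi1, glucose-6-phosphate isomerase, the values were 283, 291 and 229.9 FPKM in the order resveratrol, conditioned media and control, and for Pgk1, phosphoglycerate kinase, 982, 1002 and 856 FPKM. Neither of these is called between resveratrol and conditioned media in the authors' deposited table (q = 0.0723 and 0.404), whereas Tpi1 is, at a log2 ratio of -0.37. Aldoc, the brain aldolase, was at 3.15 FPKM with resveratrol, 5.15 FPKM in conditioned media and 2.66 FPKM in control. It made up 0.255% of the aldolase FPKM with resveratrol, 0.488% in conditioned media and 0.308% in control.

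Of the last steps, the common isoforms were lower with resveratrol than in conditioned media. Pkm, pyruvate kinase, was at 912 FPKM with resveratrol, 1128 FPKM in conditioned media and 1018 FPKM in control, and its M1 and M2 splice forms are not separated in a value per gene. Eno1, the enolase of most tissues, stood at 902 FPKM with resveratrol, 1101.5 FPKM in conditioned media and 1008 FPKM in control. Pgam1, the common phosphoglycerate mutase, was at 415, 545 and 478 FPKM in the same order. These had log2 ratios of -0.31, -0.29 and -0.39 for resveratrol over conditioned media, and of 0.15, 0.13 and 0.19 for conditioned media over control. Eno2, the neuronal enolase, stood at 22.8 FPKM with resveratrol, 30.7 FPKM in conditioned media and 22.3 FPKM in control.

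The muscle isoforms of these steps did not run together. Eno3, the muscle enolase, was at 168 FPKM with resveratrol, 233 FPKM in conditioned media and 308 FPKM in control. As deposited, it was the 1 of the 17 enzyme genes from hexokinase to pyruvate kinase that was lower by the 1.5-fold rule in resveratrol over control (log2 ratio -0.87), against 14% of loci. The authors' deposited table calls Eno3 lower in all 3 comparisons. Its share of enolase FPKM was 15.4% with resveratrol, 17.0% in conditioned media and 23.0% in control. Pgam2, the muscle mutase, was at 28.9 FPKM with resveratrol, against 17.7 FPKM in conditioned media and 19.8 FPKM in control, and held 6.51%, 3.15% and 3.99% of the mutase FPKM. Thus Pgam2 was highest and Eno3 lowest in the resveratrol library. The myotube markers summed highest there, with Acta1 at 2272.5 FPKM and Mylpf at 1831.5 FPKM. Of the 10 markers, 8 were higher with resveratrol than in conditioned media, and 2, Ckm and Atp2a1, were lower. Ckm was at 43.2 FPKM with resveratrol, 56.3 FPKM in conditioned media and 60.8 FPKM in control. Atp2a1 was at 113, 128 and 117 FPKM in that order. The part of such markers in the values of Pgam2 and Eno3 was not tested.

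**Figure D2:**
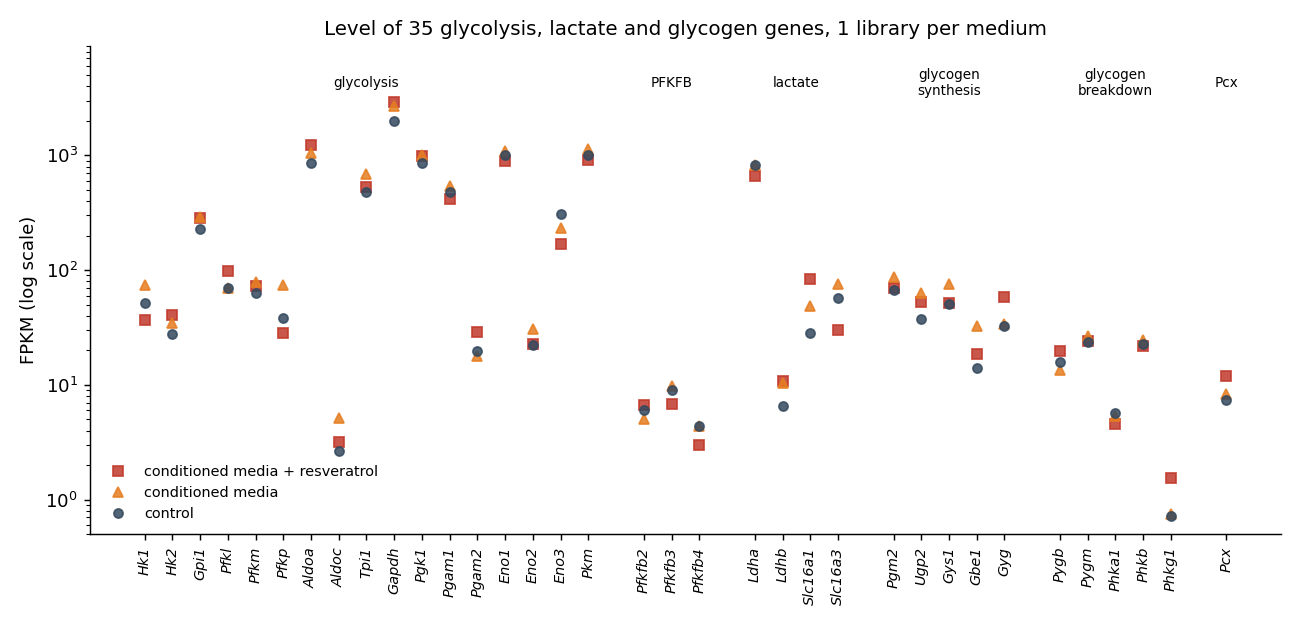
FPKM on a log axis of the 35 genes with a mean of 1 FPKM or more, grouped by role, in 1 library per medium: conditioned media with resveratrol (squares), conditioned media (triangles) and control (circles). Gapdh is highest in each library, and Slc16a1 and Slc16a3 stand in opposite order in the resveratrol library (83.6 and 29.9 FPKM) and in control (28.2 and 56.8 FPKM).

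Reads of several of these genes could be divided with near-identical copies. Stretches of 50 bases of the longest coding transcript in GENCODE M21 recurred in transcripts of other genes for 82.5% of the Gapdh stretches, in 218 other genes, for 72.2% of Eno1, 68.0% of Pgk1, 41.5% of Pgam1, 30.5% of Pkm and 27.0% of Ldhb. For Ldha, Aldoa, Gpi1 and Tpi1 the shares were 16.6%, 13.5%, 19.3% and 7.51%. Values of these genes are less certain for it, by an amount that these shares do not measure. No source used here gives the handling of reads with several matches. No such stretch was shared by Hk1, Hk2, Pfkm, Pfkp, Pgam2, Eno3, Slc16a1, Slc16a3, Gys1, Gbe1 or Gyg.

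The genes of lactate transport differed in opposite directions between resveratrol and conditioned media. Slc16a1, the MCT1 gene (chromosome 3, 104638664 to 104658462), stood at 83.6 FPKM with resveratrol, 48.8 FPKM in conditioned media and 28.2 FPKM in control. The library with resveratrol was highest and control lowest, with log2 ratios of 0.77 for conditioned media over control, 0.76 for resveratrol over conditioned media and 1.53 for resveratrol over control. Slc16a3, the MCT4 gene (chromosome 11, 120948484 to 120959000), was at 29.9 FPKM with resveratrol, 76.0 FPKM in conditioned media and 56.8 FPKM in control. It was lowest with resveratrol, at a log2 ratio of -1.32 against conditioned media and -0.91 against control, and higher in conditioned media than in control by 0.41. Under the scalings tried, the Slc16a3 ratio of resveratrol over conditioned media ran between -1.43 and -1.32, and that of Slc16a1 between 0.65 and 0.76. MCT1 transcripts made up 73.7% of the FPKM of these transporters with resveratrol, 39.1% in conditioned media and 33.2% in control. The ratio of Slc16a1 to Slc16a3 was 2.80 with resveratrol, 0.643 in conditioned media and 0.497 in control. The authors' deposited table calls both genes in all 3 comparisons, each at q = 0.000148.

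The Slc16a3 and Slc16a1 promoters are printed for this opposition. Both are on the plus strand of GRCm38.p6, at chr11:120948817-120949116 for Slc16a3 and chr3:104638414-104638713 for Slc16a1, with the same letters in capitals.
Slc16a3: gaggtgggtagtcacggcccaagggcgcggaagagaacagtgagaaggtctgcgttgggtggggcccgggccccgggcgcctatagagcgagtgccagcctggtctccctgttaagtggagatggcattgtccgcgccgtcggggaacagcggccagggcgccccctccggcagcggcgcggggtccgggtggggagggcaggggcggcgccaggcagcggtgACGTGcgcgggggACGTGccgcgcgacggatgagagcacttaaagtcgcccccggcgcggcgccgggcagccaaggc
Slc16a1: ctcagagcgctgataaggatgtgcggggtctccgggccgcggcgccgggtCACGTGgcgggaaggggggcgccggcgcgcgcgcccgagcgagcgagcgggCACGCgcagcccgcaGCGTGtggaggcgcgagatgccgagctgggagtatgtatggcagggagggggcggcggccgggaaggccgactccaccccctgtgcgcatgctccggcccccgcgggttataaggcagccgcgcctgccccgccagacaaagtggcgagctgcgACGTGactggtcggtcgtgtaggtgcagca
In Slc16a3 the matches are 2 copies of ACGTG shortly before the start site. In Slc16a1 there are 5 matches, of which 2 are the same CACGTG read on both strands. Over all promoters 19.6% hold ACGTG and 7.15% hold CACGTG. Both promoters hold these letters, and whether the letters bear on the values of either gene was not tested.

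**Figure D3:**
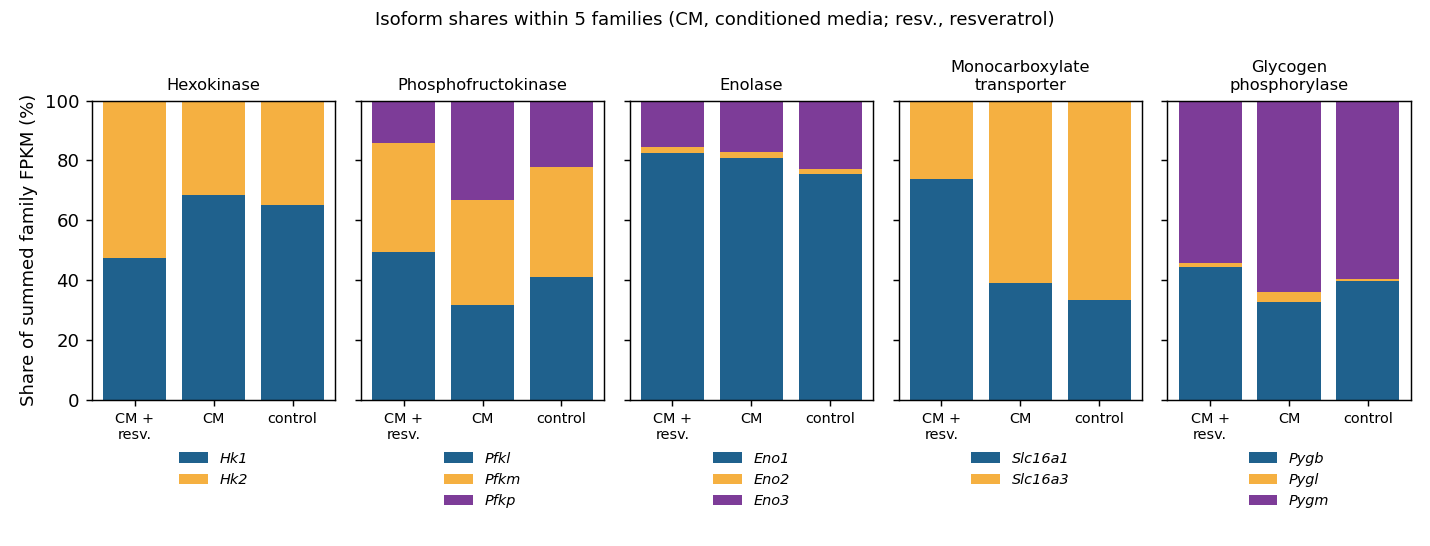
Share of each isoform in the summed FPKM of its family, in percent, in the library with resveratrol, in conditioned media and in control (1 library each). Slc16a1 holds 73.7%, 39.1% and 33.2% of the transporter FPKM, and Pfkp 14.2%, 33.4% and 22.2% of the phosphofructokinase FPKM.

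Lactate dehydrogenase interconverts pyruvate and lactate, and nearly all of its FPKM came from Ldha, the muscle type subunit. Ldha was at 666 FPKM with resveratrol, 822 FPKM in conditioned media and 829 FPKM in control, and the authors' deposited table calls no difference between the last pair (q = 0.732). Ldhb, the heart type subunit, was at 10.7 FPKM with resveratrol, 10.4 FPKM in conditioned media and 6.51 FPKM in control. Its log2 ratio was 0.61 for conditioned media over control (0.53 over loci above 200 bases, short of 1.5-fold), and its share of the dehydrogenase FPKM was 1.58%, 1.25% and 0.779%. Of the partner proteins that carry these transporters to the membrane, Bsg (basigin) stood at 773 FPKM with resveratrol, 723 FPKM in conditioned media and 519 FPKM in control, and Emb (embigin) at 32.1, 20.1 and 12.8 FPKM. Both ran in the same order as Slc16a1, with log2 ratios for resveratrol over control of 1.26 for Emb and 0.57 for Bsg. Between resveratrol and conditioned media the log2 ratio of Bsg was 0.10, which the authors' deposited table does not call.

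Genes of glycogen synthesis were higher in conditioned media than in control in 5 of 5 cases as deposited, where 48.7% of loci were. The median log2 ratio was 0.57, against -0.01 over all loci, and the sign for Gyg turned with the scaling. By the 1.5-fold rule 2 of the 5 were higher, against 7.43% of loci, and 0 were lower, against 4.92% of loci. Gbe1, the branching enzyme, was at 18.6 FPKM with resveratrol, 32.5 FPKM in conditioned media and 14.2 FPKM in control. Its log2 ratio of 1.14 for conditioned media over control was the highest of the 35 genes in that comparison, and stayed between 1.06 and 1.33 under the scalings tried. Gys1, the muscle glycogen synthase, was at 52.1 FPKM with resveratrol, 76.5 FPKM in conditioned media and 51.1 FPKM in control. Both were highest in conditioned media. For resveratrol over conditioned media the log2 ratio was -0.77 for Gbe1 and -0.54 for Gys1. Ugp2, which makes UDP-glucose, stood at 52.9, 63.5 and 37.6 FPKM in the order resveratrol, conditioned media and control. It holds a miRNA gene and shares its span with other loci, so its value is less certain. Pgm2, a phosphoglucomutase that GENCODE M21 lists as Pgm1, was at 70.6 FPKM with resveratrol, 86.9 FPKM in conditioned media and 67.0 FPKM in control.

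Gyg, glycogenin, the protein primer on which glycogen is started, differed from the rest. It was at 58.5 FPKM with resveratrol, against 34.1 FPKM in conditioned media and 32.5 FPKM in control. Its log2 ratio was 0.76 for resveratrol over conditioned media, where the other 4 genes of this group were below 0, and 0.07 for conditioned media over control. The authors' deposited table does not call Gyg between conditioned media and control (q = 0.602).

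Genes of glycogen breakdown differed less between conditioned media and control than those of synthesis, with median log2 ratios of 0.03 and 0.57. Pygm, the muscle phosphorylase, was at 23.9 FPKM with resveratrol, 26.7 FPKM in conditioned media and 23.7 FPKM in control. Pygb, the brain isoform, was at 19.6 FPKM with resveratrol, 13.6 FPKM in conditioned media and 15.7 FPKM in control, lowest in conditioned media. Pygl, the liver isoform, was at 0.534 FPKM with resveratrol, 1.45 FPKM in conditioned media and 0.375 FPKM in control, and was not tested in the authors' deposited table. Pygm held 54.3% of the phosphorylase FPKM with resveratrol, 63.9% in conditioned media and 59.5% in control. Of the phosphorylase kinase subunits, Phkb was at 21.9, 24.8 and 22.9 FPKM and Phka1 at 4.54, 5.38 and 5.65 FPKM in the same order. The catalytic subunit gene Phkg1 was near the limit of use, at 1.54 FPKM with resveratrol, 0.750 FPKM in conditioned media and 0.717 FPKM in control. With the pseudocount of 1, none of the 5 genes of this group with ratios passed the 1.5-fold rule in any of the 3 comparisons as deposited. For conditioned media over control, 7.43% of loci passed it upward and 4.92% downward. The shares were 7.59% and 12.6% for resveratrol over conditioned media, and 11.4% and 14% for resveratrol over control. Shares of this size leave few passes among 5 genes, so the count says little about the group. Phkg1 depended on the pseudocount of 1. Its log2 ratio for resveratrol over conditioned media was 0.54 with that pseudocount, 0.94 at a pseudocount of 0.1 and 1.03 with none. For resveratrol over control the ratio of Phkg1 was 0.56, 1.00 and 1.10 in the same order.

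Pcx, pyruvate carboxylase, which turns pyruvate into oxaloacetate, was at 12.1 FPKM with resveratrol, 8.38 FPKM in conditioned media and 7.35 FPKM in control. The library with resveratrol was highest, with a log2 ratio of 0.65 over control. That ratio passed the 1.5-fold rule as deposited but not over loci above 200 bases (0.51) or at a pseudocount of 5 (0.47). Pcx shares its span with another locus of the table. Fbp2, the muscle fructose bisphosphatase, was listed at 0 with resveratrol and in conditioned media and at 0.101 FPKM in control.

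**Figure D4:**
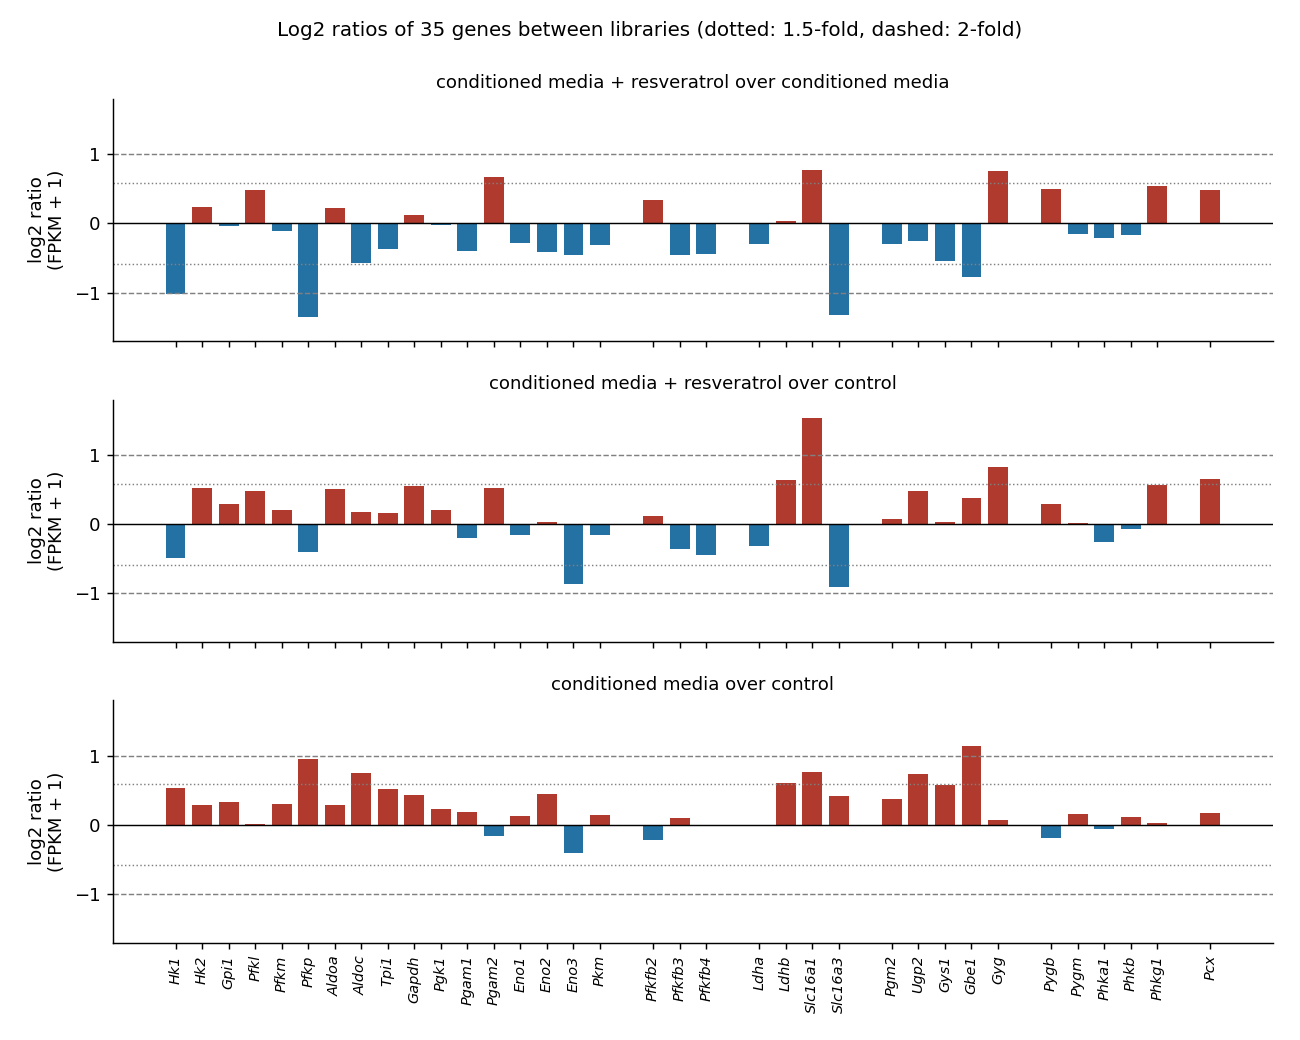
Log2 ratio of FPKM + 1 for the 35 genes, grouped by role, with resveratrol over conditioned media (top), with resveratrol over control (middle) and conditioned media over control (bottom), from 1 library each. Dotted lines mark 1.5-fold and dashed lines 2-fold. Pfkp, Slc16a3 and Hk1 lie below the lower dashed line in the top panel, Slc16a1 lies above the upper one in the middle panel and Gbe1 in the bottom panel.

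Other genes of sugar entry and glycolysis were read from a list of 20, of which 9 had a mean of 1 FPKM or more. By the 1.5-fold rule 3 were higher and 1 lower in conditioned media over control, against 7.43% and 4.92% of loci. That balance turned with the scaling, to 1 higher and 2 lower over loci above 200 bases, against 5.76% and 7.38% of loci. With TPM scaling it was 4 higher and 0 lower, against 12.6% and 2.1% of loci. With resveratrol over conditioned media 2 were higher and 1 lower, against 7.59% and 12.6% of loci. Slc2a1, the GLUT1 glucose transporter, was at 136 FPKM with resveratrol, 94.9 FPKM in conditioned media and 101 FPKM in control. Slc2a4, the insulin-regulated GLUT4 of muscle, was at 0.664, 1.16 and 0.192 FPKM. Slc2a8, an intracellular glucose transporter, stood at 12.1 FPKM with resveratrol, 6.69 FPKM in conditioned media and 3.91 FPKM in control, the largest ratio over control in the list (log2 ratio 1.42). Slc2a3, the neuronal type transporter GLUT3, was highest in conditioned media, at 1.20, 2.91 and 1.42 FPKM. Tigar, a fructose bisphosphatase that opposes glycolysis, was lowest there, at 2.75 FPKM with resveratrol, 1.51 FPKM in conditioned media and 3.08 FPKM in control.

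Of 23 other glycogen genes, 22 were found by symbol and 18 passed the limit. By the 1.5-fold rule 3 were higher and 0 lower in conditioned media over control, against 7.43% and 4.92% of loci. Epm2a, the glycogen phosphatase laforin, was at 6.69 FPKM with resveratrol, 9.67 FPKM in conditioned media and 3.58 FPKM in control (log2 ratio 1.22 for conditioned media over control). Stbd1, a glycogen-binding protein of the autophagy route, was at 47.9, 68.5 and 38.9 FPKM in the same order. Ppp1r3c, a glycogen-targeting subunit of protein phosphatase 1, was at 2.41, 2.19 and 0.804 FPKM. These values place the first pair highest in conditioned media. With resveratrol over conditioned media, 1 gene of the list was higher by this rule and 0 were lower, against 7.59% and 12.6% of loci. After scaling by the upper quartile 0 were higher and 2 lower, against 5.08% and 16% of loci. Over loci above 200 bases 0 passed in either direction, against 6.12% higher and 14.2% lower of loci.

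Among 22 genes of pyruvate entry and gluconeogenesis, 21 were found by symbol and 19 passed the limit. By the 1.5-fold rule 0 were higher and 0 lower in conditioned media over control, against 7.43% and 4.92% of loci. With TPM scaling 3 were higher there, against 12.6% of loci. With resveratrol over conditioned media 1 was higher and 2 lower, against 7.59% and 12.6% of loci. The higher 1 was Pdk4, a kinase that inactivates pyruvate dehydrogenase, at 17.2 FPKM with resveratrol, 10.7 FPKM in conditioned media and 9.56 FPKM in control. The 2 lower ones were Me2, the mitochondrial malic enzyme, at 12.0, 24.6 and 18.5 FPKM, and Pdk3, at 17.4, 29.7 and 22.1 FPKM. The kinase isoforms thus stood in different orders. After scaling by the upper quartile 0 genes of this list were higher and 3 lower, against 5.08% and 16% of loci. Of 8 pentose phosphate genes, 1 was higher and 0 were lower in conditioned media over control, against 7.43% and 4.92% of loci. The higher 1 was Tkt, transketolase, at 30.2 FPKM with resveratrol, 29.3 FPKM in conditioned media and 18.5 FPKM in control. With resveratrol over conditioned media 1 was higher and 0 were lower, against 7.59% and 12.6% of loci. It was Rpia, which isomerises ribose 5-phosphate, at 14.3, 8.61 and 7.39 FPKM. Over loci above 200 bases no pentose phosphate gene passed in conditioned media over control, against 5.76% higher and 7.38% lower of loci. After scaling by the upper quartile 0 were higher and 1 lower with resveratrol over conditioned media, against 5.08% and 16% of loci.

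Of 14 regulators of glycolysis, 12 passed the limit. Hif1a, the oxygen-regulated factor subunit, was at 103 FPKM with resveratrol, 131 FPKM in conditioned media and 89.5 FPKM in control. Egln3, a prolyl hydroxylase gene that is itself induced by hypoxia, was at 74.2 FPKM with resveratrol, 119.6 FPKM in conditioned media and 92.2 FPKM in control. Both were highest in conditioned media. Egln3 was the 1 regulator lower by the 1.5-fold rule with resveratrol over conditioned media, against 12.6% of loci. Txnip, an arrestin that lowers glucose uptake and is induced by glucose, was at 299 FPKM with resveratrol, 168 FPKM in conditioned media and 48.4 FPKM in control. Its log2 ratios, 1.78 for conditioned media over control and 2.60 for resveratrol over control, exceeded those of all 35 genes in the same comparisons. Gsk3a and Gpd1 were among the genes listed but were not found by symbol, so they have no values here.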

How the data were processed

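RNA from 3 cultures, 1 per medium, was sequenced with an Illumina TruSeq version 2 kit, per the labels' protocols. The submitters' processing notes name Cuffdiff 2.2.1.3, Cufflinks 2.2.1.0, TopHat2 2.1.0, Bowtie, Trim Galore 0.4.3.1, FastQC 0.69 and mm10. No source used here gives the annotation, whether strand was used, or how libraries were scaled. Per the file headers, the deposited values are FPKM per gene in the format that Cuffdiff writes, computed by the authors. Its log2 fold changes, test statistic (a score), p-values (smallest 5e-05) and q-values are the authors' and were taken as deposited, the test statistic not being used. With 1 library per group, no replicate cultures stood behind that test, and a call says that 2 libraries differ.

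Log2((FPKM + 1)/(FPKM + 1)) was computed for all loci with Python 3.11.15, numpy 2.4.6 and pandas 2.3.3, and the members were read from it. The pseudocount understates the change of low genes. Loci with a mean of 1 FPKM or more over the 3 libraries were used, 11858 in all. A search for whole-read steps found the most frequent ratio between libraries in 9 of 4286 loci that Cuffdiff left untested, so depth is unknown. Library size, and so the precision of low values, could not be computed. Starts were converted to 1-based positions. The ratio code was tested by planting known fold changes in the values of the control library. Alternatives changed the pseudocount, the filter, the scaling and the handling of several loci per symbol. GENCODE M21 (for all 38 genes, by symbol and position) and the RefSeq promoter table (54 entries for 38 genes) are of the same build. All members, and at most 4 genes per list and comparison by absolute ratio besides Slc2a1 and Slc2a4, could be named. The members and lists were chosen with earlier results of these data known.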

Additional observations from a re-analysis of the deposited data

How the results depend on the processing

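Counts by the 1.5-fold and 2-fold rules and the median ratios were recomputed under 10 alternatives. In conditioned media over control, the genes higher by 2-fold numbered 1 as reported (1.98% of all loci) and 0 at a pseudocount of 5 (0.472%). They numbered 2 with TPM scaling (3.06%) or the upper quartile (2.72%). Those higher by 1.5-fold numbered 6 as reported (7.43% of all loci) and 12 with TPM scaling (12.6% of all loci), and the median of 0.23 was 0.42 with TPM scaling and 0.36 with the upper quartile. In resveratrol over conditioned media, the genes higher by 2-fold numbered 0 as reported (1.53% of all loci) and 1 with no pseudocount (2.67%), Phkg1. In resveratrol over control, those higher by 2-fold numbered 1 as reported (3.6% of all loci). They numbered 2 at a pseudocount of 0.1 (5.32%), with no pseudocount (5.56%) and with TPM scaling (5.46%). Those higher by 1.5-fold numbered 4 as reported (11.4% of all loci), 2 at a pseudocount of 5 (5.48%) and over loci above 200 bases (7.61%), and 11 with TPM scaling (19.5%). Those lower by 2-fold numbered 0 as reported (5.25% of all loci) and 2 over loci above 200 bases (7.08%). The median of 0.16 was 0.32 with TPM scaling and 0.0082 over loci above 200 bases. TPM scaling weights loci of 200 bases or less, which hold most of the FPKM sum. The other causes were not tested. No gene changed sign under these alternatives in a comparison in which it passed the 1.5-fold rule. The other 134 recomputed counts and medians lay within 1.5 times the count or 0.1 (log2) of the median as reported, as did 982 values of single genes and isoform shares within 0.1 (log2) or 5 percentage points, while 197 did not. No paired analysis was possible because each group has 1 library. Unknown depth limits what can be said of the low genes Phkg1, Aldoc and Pfkfb4.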
